A study of Saccharomyces cerevisiae with 14 samples.

Results

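Cells of budding yeast (Saccharomyces cerevisiae) in which SWI4 had been induced for 4 h were compared with untreated cells, gene by gene, over the 6337 genes that passed a filter on low counts. The comparison uses 4 of the 14 libraries of poly-A selected RNA in the study: the 2 estradiol 4 h libraries and the 2 untreated libraries. The 2 libraries given ethanol for 4 h are set beside them. All groups carry the genotype Z3EVpr-SWI4, in which SWI4 stands behind a promoter that an estradiol-activated synthetic transcription factor drives, and all were grown in synthetic complete medium with 2% glucose. The estradiol 4 h cells received 5 nM beta-estradiol dissolved in ethanol, the ethanol 4 h cells received ethanol alone, and the untreated cells were controls with no treatment, labelled 0 h. The labels of the estradiol and ethanol samples give 4 h, while the general protocol names 1 h; the sample labels were used. The comparison therefore joins SWI4 induction, the estradiol and its solvent, and 4 h in culture. Every group carries the construct, so what SWI4 did cannot be told apart from anything else that estradiol, or the synthetic factor, may do.

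Swi4 is the DNA-binding subunit of SBF, a transcription factor that it forms with Swi6. SBF turns on G1 cyclin genes and genes of bud growth and cell wall synthesis late in G1, and its relative MBF, in which Mbp1 takes the place of Swi4, turns on genes of DNA synthesis and repair. Whi5 holds SBF inactive until the cyclin Cln3 and its kinase relieve it. A batch culture on glucose also changes with time: as the sugar is used, yeast is known to raise high-affinity hexose transporters, storage carbohydrate enzymes, respiratory genes and stress genes, and to lower genes of ribosome synthesis.

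Of the 6337 genes, 675 (10.7%) were called at an adjusted p under 0.05 in edgeR's quasi-likelihood test, 434 (6.85%) higher and 241 (3.8%) lower with estradiol for 4 h than in untreated cells. Among them, 311 rose and 92 fell more than 2-fold, and 94 rose and 28 fell more than 4-fold. The higher calls had a median log2 fold change of 1.33, and the lower calls one of -0.90; over all genes tested the median was -0.02. In all 675 called genes both estradiol libraries lay on the same side of both untreated libraries, as they did in 67.2% of all genes tested. Scaling by library totals alone gave 377 calls, of which 76.4% were higher, against 64.3% of the 675. Of those 377, 268 were among the 675. Leaving out any 1 of the 4 libraries lowered the count and left its group with 1 library. A call lost there, or in the sections below, may therefore reflect fewer libraries as well as the library left out. By rule, 99 called genes are named. The count was 409 without estradiol replicate 1, 183 without estradiol replicate 2, 205 without untreated replicate 1 and 185 without untreated replicate 2. In the same fit, 119 genes (1.88%) differed between estradiol and ethanol at 4 h, 75 (1.18%) higher and 44 (0.694%) lower with estradiol. Ethanol at 4 h differed from untreated cells in 110 genes (1.74%), 92 (1.45%) higher and 18 (0.284%) lower. The estradiol and ethanol comparisons with untreated cells share the untreated libraries, so their values are given side by side and not correlated.

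**Figure D1:**
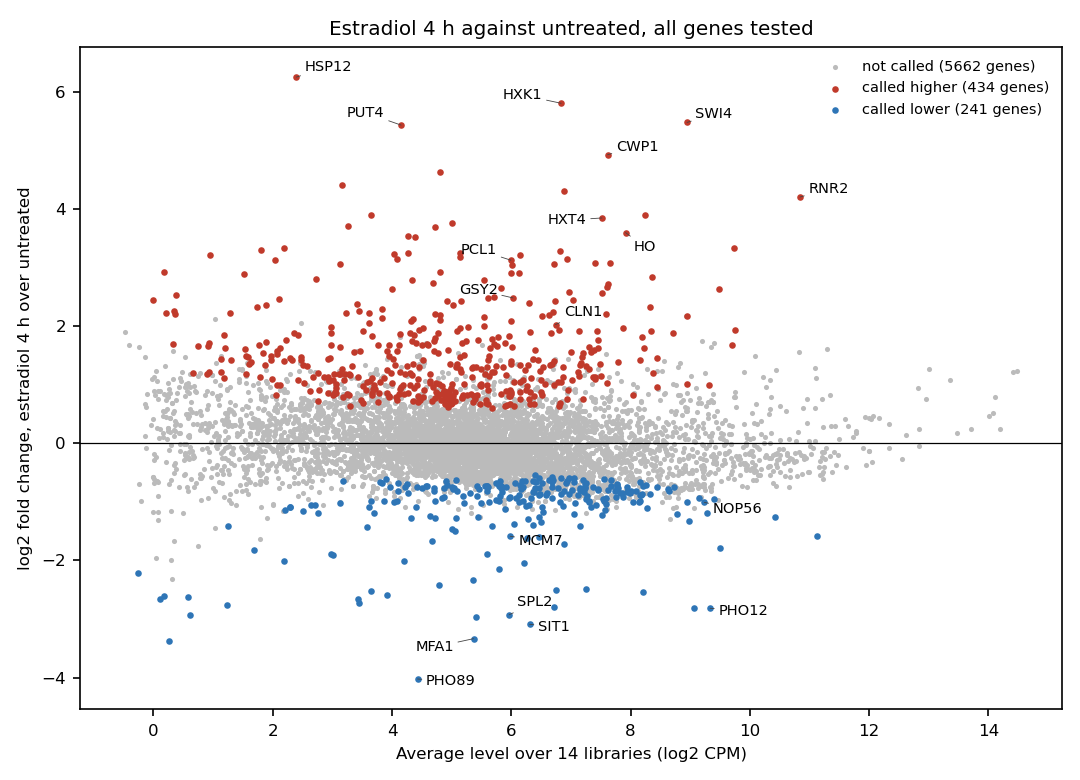
Each point is 1 of the 6337 genes tested, with its average level over the 14 libraries (log2 CPM) on the horizontal axis and its log2 fold change, estradiol 4 h over untreated, on the vertical axis. Red points are the 434 genes called higher, blue points the 241 called lower and grey points the 5662 not called; the named genes reach from 6.25 for HSP12 (5 and 4 reads in the untreated libraries) to -4.02 for PHO89.

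Total counts were 13188522 and 15561120 in the estradiol 4 h libraries, 12262238 and 16212966 in the ethanol 4 h libraries and 12312060 and 17314913 in the untreated libraries, within 3469868 to 17314913 over all 14. The labels do not say whether replicates came from separate cultures, so the spread between replicates may be technical. The p-values rest on that spread over all 14 libraries, those of 1 h and 2 h included. Log2 levels correlated at 0.986, 0.986 and 0.992 within the estradiol 4 h, ethanol 4 h and untreated pairs. Within the 1 h and 2 h pairs they correlated at 0.979 and 0.956 with estradiol and at 0.962 and 0.982 with ethanol. The 10 most abundant genes took 16.3% and 20.3% of the estradiol counts, 12.8% and 18.4% of the ethanol counts and 13.3% and 11.1% of the untreated counts. The first principal component of all libraries (39.3% of the variance) placed the estradiol libraries at 5.07 and 27.1, the ethanol libraries at -3.58 and 19.8 and the untreated libraries at -13.5 and -26.9. Among the libraries of these groups the untreated pair stood apart on it, while the estradiol and ethanol libraries interleaved and replicates of a group lay apart. Estradiol replicate 1 at 1 h (-24.59) and at 2 h (-20.15) lay between the untreated libraries. The second component (28.4% of the variance) separated the groups. It placed estradiol at -22.01 and -20.73, ethanol at 3.83 and 6.57 and untreated at 19.3 and 12.61. The fold change also varied with gene length: over 5 equal groups by length, its median was 0.15 in the shortest genes and -0.25 in the longest. The part of these differences in the calls was not tested beyond the alternative settings given in the closing section.

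SWI4 (YER111C) itself had 1049 and 668 CPM with estradiol, 23.0 and 12.1 CPM with ethanol and 17.9 and 20.7 CPM in untreated cells, the values of replicate 1 standing before those of replicate 2 here and below. CPM are counts brought to a common library size with trimmed-mean (TMM) factors. Both estradiol libraries stood far above the other 4, which overlapped. The fold was 44.5 over untreated cells (95% interval 22.7 to 87.1), or 5.47 on the log2 scale (SE 0.44, adjusted p = 3.64e-05). Each group has n = 2, the SE is that of the log2 fold change, and folds without a further label are log2 fold changes of estradiol 4 h over untreated. Reads of the induced gene and of any native copy were counted together.

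The partners and regulators of SBF gave 1 call among 8 genes. SWI6, the subunit shared by SBF and MBF, had 57.6 and 38.4 CPM with estradiol, against 39.4 and 53.0 CPM in untreated cells, and the groups overlapped (0.05, 95% interval -0.79 to 0.90, adjusted p = 0.946). MBP1, the DNA-binding subunit of MBF, stood at -0.19 (-1.12 to 0.74) and CLN3, the upstream G1 cyclin, at -0.09 (-0.48 to 0.29). WHI5, the SBF inhibitor, had 5.55 and 5.31 CPM with estradiol, 10.2 and 14.8 CPM with ethanol and 10.4 and 8.35 CPM in untreated cells. Its estradiol libraries were the lowest of the 6, at -0.78 against untreated cells, with an adjusted p of 0.151 that did not pass. BCK2 (-0.60), STB1 (0.02) and MSA2 (0.26), whose products act on SBF or MBF, did not pass either. The direction of SWI6, MBP1 and STB1 changed under some settings. MSA1, whose product binds SBF and MBF, was the gene that passed, with 15.0 and 15.5 CPM with estradiol, 36.7 and 31.8 CPM with ethanol and 35.9 and 36.2 CPM in untreated cells. The estradiol libraries lay below the other 4, and MSA1 fell by 1.24 (SE 0.22, adjusted p = 0.00431); the adjusted p was 0.0512 without estradiol replicate 2 and 0.0602 with library totals alone.

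G1 cyclins and other regulators that SBF is known to activate made up the list with the largest share of higher calls. Of these, 8 of 10 rose, with a median of 1.53, against 6.85% higher calls among all genes and a median of -0.02. The lists were chosen with earlier results of these data known, so their ranking is not independent of these data. HO, the endonuclease of mating-type switching and a classic SBF target, had 584 and 579 CPM with estradiol, 35.0 and 29.8 CPM with ethanol and 46.7 and 49.6 CPM in untreated cells. The estradiol pair stood apart from all 4 other libraries, and HO rose by 3.59 (SE 0.21, adjusted p = 8.41e-06), the smallest p of the comparison. PCL1, a cyclin of the Pho85 kinase, had 119 and 116 CPM with estradiol, 16.0 and 12.2 CPM with ethanol and 13.4 and 13.5 CPM in untreated cells. Its ethanol and untreated libraries overlapped, and it rose by 3.12 (SE 0.20, adjusted p = 1.21e-05). CLN1, a G1 cyclin of Cdc28, had 181 and 155 CPM with estradiol, 65.2 and 57.8 CPM with ethanol and 38.3 and 44.1 CPM in untreated cells. The 3 groups stood in 3 separate steps, with a rise of 2.02 against untreated cells (SE 0.19, adjusted p = 6.26e-05), an estradiol-over-ethanol difference of 1.45 (adjusted p = 0.00135) and an ethanol-over-untreated difference of 0.58 that did not pass (adjusted p = 0.125). CLN2, its close relative, had 179 and 152 CPM with estradiol, 90.2 and 78.8 CPM with ethanol and 84.1 and 92.9 CPM in untreated cells. It rose by 0.90 (SE 0.23, adjusted p = 0.0306), but the call was lost when any of the 4 libraries was left out (adjusted p = 0.108 to 0.192). PCL2 rose by 1.31, the homeodomain repressors YHP1 and YOX1 by 1.76 and 1.75, and the forkhead factor HCM1 by 1.21. NDD1, an activator of mitotic genes, stood at 0.66 (adjusted p = 0.091) and TOS4 at 0.01 (0.987). In each of the 4 fits that left out an estradiol or untreated library 7 members were called higher, and with library totals alone 5 were, PCL2 then having an adjusted p of 0.0676. Between estradiol and ethanol 7 of the 10 were higher with estradiol; the median of ethanol over untreated cells was 0.15.

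SBF also serves genes of the wall and of the growing bud, and 13 of these 20 rose (median 1.38), against 6.85% of all genes. The other 7 were not called, 1 of them with a negative fold change (-0.91) that had an unadjusted p under 0.05. With library totals alone 11 were called higher and 1 lower. Of the 20, 10 were also higher with estradiol than with ethanol. CSI2, which has been linked to chitin synthesis, had 174 and 182 CPM with estradiol, 41.1 and 38.9 CPM with ethanol and 41.8 and 37.0 CPM in untreated cells. The ethanol and untreated libraries overlapped, and CSI2 rose by 2.18 (SE 0.18, adjusted p = 3.64e-05). SVS1, of a cell wall protein, had 361 and 501 CPM with estradiol, 55.9 and 82.2 CPM with ethanol and 52.0 and 50.6 CPM in untreated cells. All 4 libraries without estradiol lay far below the estradiol pair, and SVS1 rose by 3.07 (SE 0.35, adjusted p = 0.00026). GIC2, of an effector of the polarity GTPase Cdc42, had 131 and 135 CPM with estradiol, 74.5 and 75.4 CPM with ethanol and 52.7 and 55.3 CPM in untreated cells. Its 3 groups did not overlap, with a rise of 1.30 (SE 0.15, adjusted p = 0.000309). Its paralog GIC1 rose by 1.58, the wall protein genes TOS6 and SRL1 by 3.03 and 2.32, the mannosyltransferase genes MNN1 and OCH1 by 1.54 and 1.35, the bud-site marker AXL2 by 1.41, the exoglucanase gene EXG1 by 1.93, the surface sensor MSB2 by 1.91, the glucan synthesis gene KRE6 by 1.02 and TOS2 by 0.71. The count was 10 to 12 when 1 of the 4 libraries was left out.

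**Figure D2:**
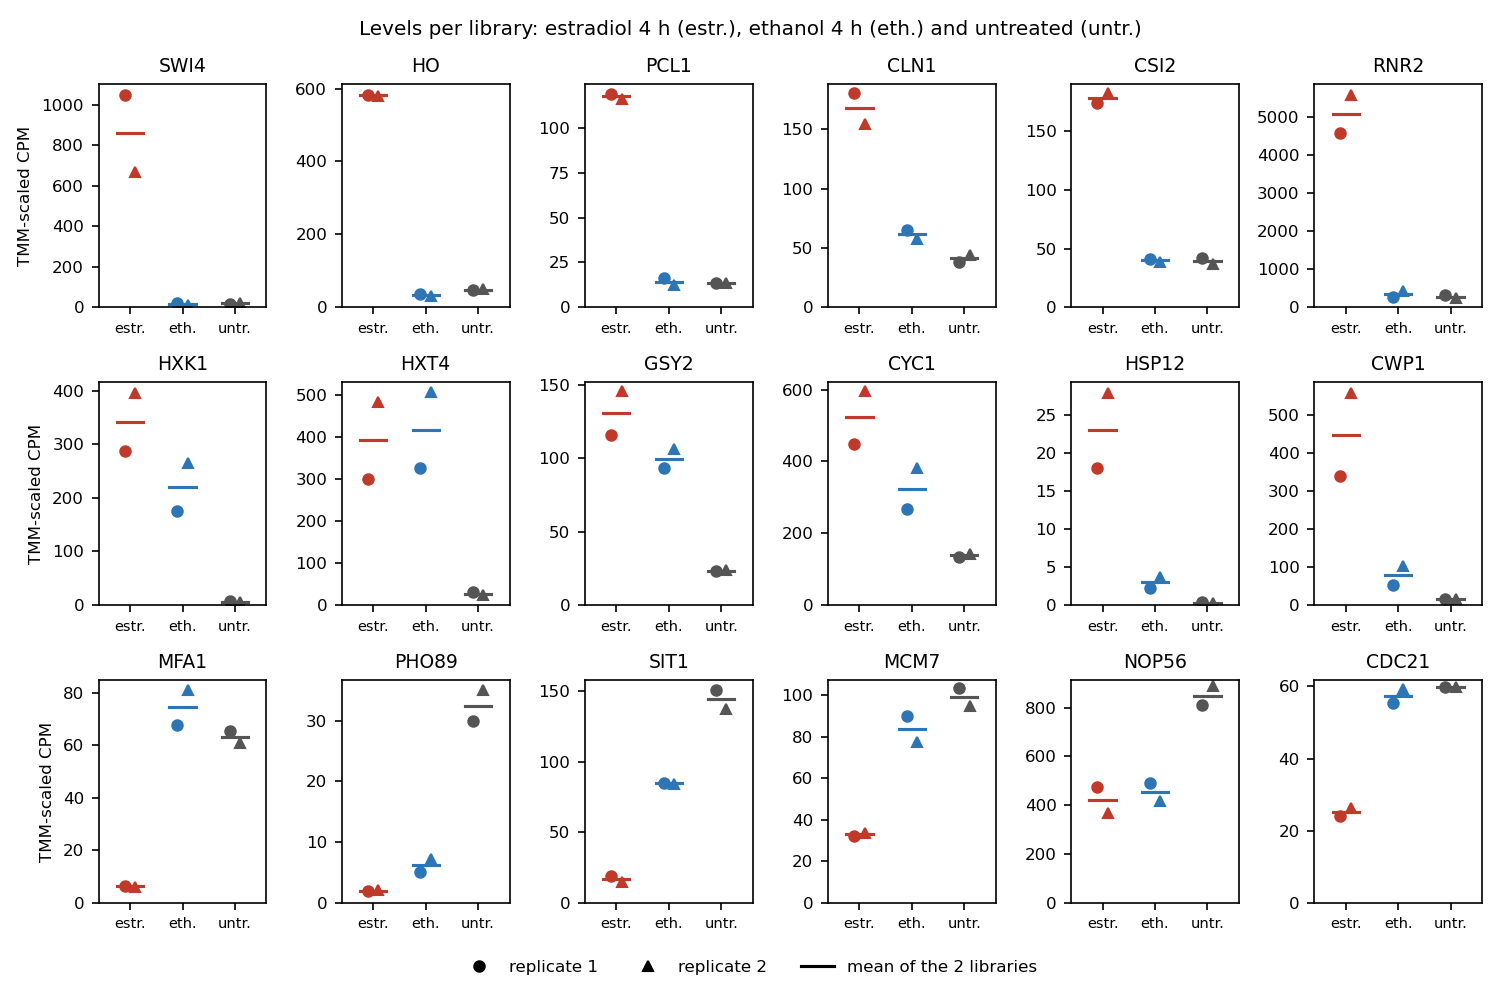
Each panel gives 1 gene's level in TMM-scaled CPM, on its own linear axis from 0, in the 2 estradiol 4 h, 2 ethanol 4 h and 2 untreated libraries (circles replicate 1, triangles replicate 2, lines the mean of 2). In the top row the ethanol and untreated libraries lie well below the estradiol ones, while HXK1, HXT4, GSY2 and NOP56 have ethanol libraries much closer to the estradiol ones.

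The MBF genes of DNA replication and repair had calls both ways. Of 35, 5 rose and 5 fell, against 6.85% higher and 3.8% lower calls among all genes, and the median was -0.43. The higher ones included the co-repressor gene NRM1, the S-phase cyclin genes CLB6 and CLB5 and the large ribonucleotide reductase subunit gene RNR1. NRM1 had 49.6 and 48.8 CPM with estradiol, 14.2 and 11.3 CPM with ethanol and 11.3 and 11.6 CPM in untreated cells. Its estradiol pair stood apart from the other 4 libraries, which overlapped, with a rise of 2.10 (SE 0.25, adjusted p = 0.000309). CLB6 had 24.5 and 21.5 CPM with estradiol, 5.71 and 3.499 CPM with ethanol and 3.72 and 5.99 CPM in untreated cells; its ethanol and untreated libraries overlapped, and it rose by 2.22 (SE 0.33, adjusted p = 0.00151; 0.0541 with library totals alone). RNR1 rose by 2.17 and CLB5 by 1.29. The lower ones were the thymidylate synthase gene CDC21, the histone chaperone gene ASF1, the DNA polymerase alpha subunit gene POL12, the flap endonuclease gene RAD27 and the replication fork gene TOF1. CDC21 had 24.0 and 26.2 CPM with estradiol, 55.5 and 59.4 CPM with ethanol and 59.9 and 60.0 CPM in untreated cells. The estradiol pair lay well below every other library, and CDC21 fell by 1.26 (SE 0.17, adjusted p = 0.00063). The falls of ASF1 (-0.99), POL12 (-0.73), RAD27 (-0.64) and TOF1 (-0.90) were smaller. Without 1 of the 4 libraries 4 or 5 members were called higher and 1 or 2 lower. The balance turned on the setting: library totals alone gave 3 higher and 1 lower calls, and DESeq2 gave 7 higher and 11 lower. Against ethanol, 4 members were higher and 1 lower with estradiol.

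Ribonucleotide reductase makes the deoxynucleotides for DNA, and RNR2 and RNR4 encode its small subunits. RNR2 had 4588 and 5591 CPM with estradiol, 262 and 427 CPM with ethanol and 308 and 245 CPM in untreated cells. The estradiol libraries stood far above the other 4, which overlapped, with a rise of 4.20 (SE 0.55, adjusted p = 0.000615). YJL026C-A, an annotated frame at the same locus, rose by 4.31; no source says that counting used strand, so its reads and those of RNR2 cannot be told apart. RNR4 had 1262 and 1547 CPM with estradiol, 468 and 783 CPM with ethanol and 478 and 403 CPM in untreated cells, with ethanol and untreated overlapping, a rise of 1.67 (SE 0.45, adjusted p = 0.0376) that was lost when any of the 4 libraries was left out (adjusted p = 0.0766 to 0.236). They are the 2 that passed among 5 tested genes of these subunits and their damage-responsive partners (median 1.20). SML1, an inhibitor of the enzyme, stood at 1.20 (0.09 to 2.31, adjusted p = 0.15) and DIF1, which acts on the small subunits, at 0.99 (0.21 to 1.77, 0.0981). RNR3, the alternative large subunit that DNA damage is known to induce, stood at -0.08 (-0.61 to 0.45, adjusted p = 0.852).

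Genes of replication licensing and a daughter cell wall gene showed a different picture from the SBF genes. The licensing list, the MCM helicase genes with CDC6, held 6 lower calls and 1 higher among 7 genes (median -1.001, against 3.8% lower calls among all genes). All 6 MCM genes fell, in the order MCM7 (-1.59), MCM5 (-1.41), MCM3 (-1.34), MCM2 (-1.001), MCM6 (-0.92) and MCM4 (-0.77). MCM7 had 32.3 and 33.7 CPM with estradiol, 89.9 and 77.3 CPM with ethanol and 104 and 94.8 CPM in untreated cells. Its estradiol libraries lay far below the other 4 (SE 0.23, adjusted p = 0.00113), and it also differed between estradiol and ethanol (-1.34, adjusted p = 0.00888). CDC6, which loads the helicase, rose by 0.73. Without 1 of the 4 libraries 2 to 4 of the list were called lower and CDC6 lost its call each time. With library totals alone 2 of the 7 were called lower and 0 higher, and MCM5 and MCM2 had adjusted p of 0.0888 and 0.118. In bulk RNA, a lower level in each cell and fewer cells at the stage that expresses a gene cannot be told apart. DSE2, of a daughter cell wall protein, had 68.5 and 71.5 CPM with estradiol, 145 and 154 CPM with ethanol and 152 and 143 CPM in untreated cells, with ethanol and untreated overlapping, and fell by 1.08 (SE 0.22, adjusted p = 0.00982; 0.0599 to 0.0908 without 1 of the 4 libraries).

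Of the 8 core histone genes 2 rose, against 6.85% of all genes, and of the 18 genes of the CLB2 cluster of mitosis 1 did. All 8 histone genes had positive fold changes (median 0.63). The histone count turned on the setting, with 5 called higher in DESeq2, 4 with the replicate block, 6 when only the groups compared were fitted and 0 without any 1 of the 4 libraries. In edgeR HTB1 (0.99, adjusted p = 0.0391) and HTA1 (1.01, 0.0488), which encode histones H2B and H2A, passed. HTA1 had 584 and 802 CPM with estradiol, 385 and 534 CPM with ethanol and 353 and 334 CPM in untreated cells, and its 3 groups did not overlap. Both calls were lost when any of the 4 libraries was left out (adjusted p = 0.0619 to 0.367 for HTA1 and 0.0576 to 0.317 for HTB1). Of the 18 CLB2 cluster genes, only the mitotic cyclin gene CLB1 passed. It had 172 and 131 CPM with estradiol, 88.7 and 58.7 CPM with ethanol and 52.7 and 61.8 CPM in untreated cells, with ethanol and untreated overlapping, a rise of 1.40 (SE 0.32, adjusted p = 0.0179), lost without any 1 of the 4 libraries (adjusted p = 0.0529 to 0.147).

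Mating genes fell in part. The untreated cells expressed a-specific genes, among them MFA1 at 65.4 and 61.0 CPM, while the 3 tested alpha-specific genes summed to 23.5 CPM in each untreated library. The 7 a-specific genes summed to 769 and 882 CPM with estradiol, 1486 and 1638 CPM with ethanol and 1575 and 1399.8 CPM in untreated cells. MFA1, one of the pair of a-factor pheromone genes, had 6.55 and 5.95 CPM with estradiol, 67.9 and 81.1 CPM with ethanol and 65.4 and 61.0 CPM in untreated cells. The estradiol libraries lay about an order of magnitude under the others, and MFA1 fell by 3.34 (SE 0.25, adjusted p = 1.97e-05). MFA2, the other a-factor gene, had 18.7 and 24.5 CPM with estradiol, 121 and 147 CPM with ethanol and 94.98 and 84.0 CPM in untreated cells, with no overlap between groups, and fell by 2.05 (SE 0.28, adjusted p = 0.00102). Both also differed from ethanol, by -3.57 and -2.63. STE6, the a-factor exporter, had 134 and 126 CPM with estradiol, 211 and 182 CPM with ethanol and 276 and 294 CPM in untreated cells, with no overlap between groups, and fell by 1.13 (SE 0.25, adjusted p = 0.0162), a call that was lost without any 1 of the 4 libraries (adjusted p = 0.0738 to 0.151). The other 4 of the 7 a-specific genes did not pass. The 3 tested alpha-specific genes gave 0 calls in edgeR, 0 at an unadjusted p under 0.05 and 0 in DESeq2, and summed to 22.9 and 21.5 CPM with estradiol and 24.9 and 21.9 CPM with ethanol. Among 21 pheromone response and haploid genes, 7 fell and 1 rose. The ones that fell were SST2 (-1.27), PRM3 (-1.09), AGA1 (-1.30), PRM4 (-0.74), PRM6, the G protein subunit gene STE4 (-0.67) and the kinase inhibitor gene FAR1 (-0.59), and FUS1, of a protein for cell fusion, rose by 0.72. PRM6 had 1 and 2 reads with estradiol, against 7 and 10 in untreated cells, and no fold is given where a group holds 3 reads or fewer. In each of the 4 fits without a library 0 or 1 of the list was called lower, and FUS1 lost its call each time (adjusted p = 0.0552 to 0.222).

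Several of the largest rises were in glucose metabolism, and there the ethanol libraries stood high as well. HXK1, a hexokinase gene that glucose is known to repress, had 287 and 396 CPM with estradiol, 175 and 266 CPM with ethanol and 6.88 and 5.41 CPM in untreated cells. The 3 groups did not overlap, and the untreated pair stood far below the other 4. HXK1 rose by 5.80 (SE 0.44, adjusted p = 2.13e-05) with estradiol and by 5.17 (adjusted p = 0.000215) with ethanol, and the difference between them was 0.63 (adjusted p = 0.844). YFR052C-A, an annotated frame at the same locus, rose by 4.40, and its reads cannot be told from those of HXK1 where strand is not used. GLK1, the glucokinase gene, had 486 and 973 CPM with estradiol, 244 and 624 CPM with ethanol and 55.9 and 42.7 CPM in untreated cells. The estradiol and ethanol libraries overlapped, the rise was 3.89 (SE 0.78, adjusted p = 0.00968), and it passed in 1 of the 4 fits that left out a library (adjusted p = 0.0147 to 0.112). HXT4, a high-affinity hexose transporter gene, had 300.4 and 483 CPM with estradiol, 325 and 505 CPM with ethanol and 31.3 and 23.3 CPM in untreated cells. The estradiol and ethanol libraries overlapped, and the rise was 3.84 with estradiol (SE 0.45, adjusted p = 0.000309) and 3.93 with ethanol (adjusted p = 0.00145). The near-identical HXT6 and HXT7, between which reads may be split, rose by 3.05 and 3.28. MTH1, a repressor in glucose sensing, had 52.5 and 66.6 CPM with estradiol, 39.2 and 46.1 CPM with ethanol and 16.3 and 14.2 CPM in untreated cells, with no overlap between groups, a rise of 1.97 (SE 0.23, adjusted p = 0.00029). With the glucose repressor gene MIG1 (0.75), 5 of 16 transporter and sensing genes rose (median 0.61), and 3 or 4 without 1 of the 4 libraries. HXT1, a low-affinity transporter gene, stood at -1.30 (-2.37 to -0.23, adjusted p = 0.111). Of 19 gluconeogenesis and glucose-repressed genes 5 rose, the others being ICL1 (0.81), IDP2 (0.85) and REG2 (0.90). ICL1 had an adjusted p of 0.0243 to 0.268 when 1 of the 4 libraries was left out, and the count of the list was 1 to 4. Of 17 glycolysis and fermentation genes, all had positive fold changes (median 0.75). In edgeR 0 passed, 2 had an unadjusted p under 0.05, and DESeq2 called 2 higher.

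Glycogen and trehalose are the storage carbohydrates of yeast, and 11 of the 17 genes of their metabolism rose (median 1.46); the median with ethanol was 1.23, and 8 of the 17 were called higher with ethanol. GSY2, the main glycogen synthase gene, had 116 and 146 CPM with estradiol, 93.5 and 106 CPM with ethanol and 23.1 and 23.8 CPM in untreated cells. The untreated libraries lay far below the other 4, and GSY2 rose by 2.48 (SE 0.18, adjusted p = 1.68e-05) with estradiol and by 2.09 (adjusted p = 0.000215) with ethanol. PGM2, the phosphoglucomutase gene, had 93.7 and 129 CPM with estradiol, 54.4 and 73.7 CPM with ethanol and 17.2 and 15.2 CPM in untreated cells, in 3 separate steps, and rose by 2.78 (SE 0.29, adjusted p = 0.000154). TSL1, a subunit gene of trehalose synthase, had 149 and 201 CPM with estradiol, 64.1 and 92.3 CPM with ethanol and 19.5 and 18.1 CPM in untreated cells, with no overlap between groups, and rose by 3.22 (SE 0.34, adjusted p = 0.000178). GPH1, the glycogen phosphorylase gene, rose by 3.17, the branching enzyme gene GLC3 by 2.50, the second synthase gene GSY1 by 2.19, the glycogenin genes GLG1 and GLG2 by 1.48 and 0.96, TPS1 and TPS2 of trehalose synthesis by 1.63 and 1.30, and UGP1, which makes UDP-glucose, by 1.46. The median of estradiol over ethanol was 0.29. Without 1 of the 4 libraries 7 to 9 of the 17 were called.

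**Figure D3:**
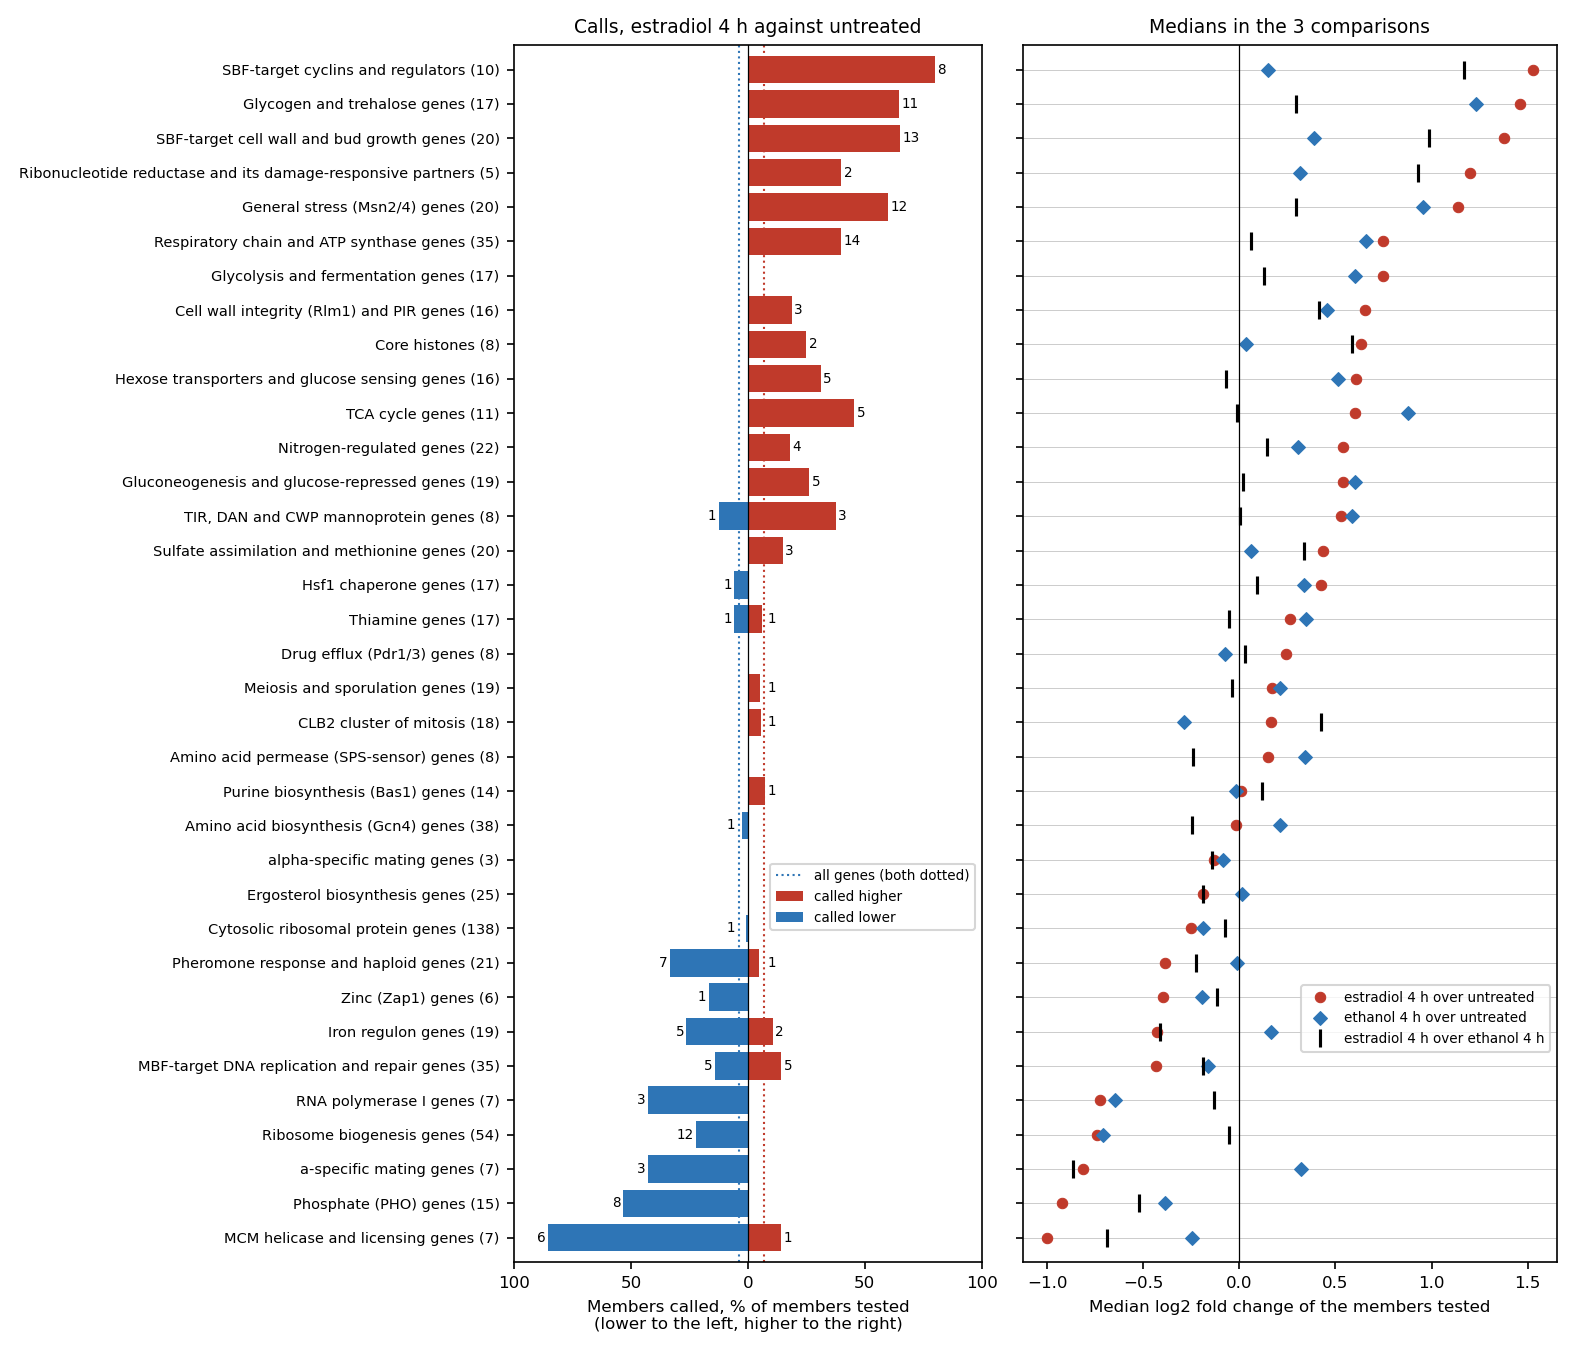
The left panel gives, for each gene list shown with its number of tested members, the share called higher (red, to the right) and lower (blue, to the left) with estradiol 4 h against untreated, with counts at the bar ends and dotted lines at the shares among all genes (6.85% and 3.8%). The right panel gives each list's median log2 fold change in 3 comparisons: the SBF lists lie at 0.15 and 0.39 for ethanol over untreated, while the glycogen, respiratory, TCA cycle and ribosome biogenesis lists have ethanol medians close to the estradiol ones.

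General stress genes, the targets of Msn2 and Msn4, rose in 12 of 20 tested cases (median 1.14; 0.95 with ethanol). HSP12, of a small membrane-protecting stress protein, had 18.0 and 27.9 CPM with estradiol, 2.28 and 3.64 CPM with ethanol and 0.405 and 0.21 CPM in untreated cells. The groups lay in 3 separate steps, with 5 and 4 reads in the untreated libraries, so the size of the fold rests on few reads. The fitted rise was 6.25 (95% interval 5.34 to 7.16, SE 0.42, adjusted p = 1.33e-05), and estradiol exceeded ethanol by 2.95 (adjusted p = 0.00043). MSC1 had 61.8 and 90.8 CPM with estradiol, 41.7 and 44.2 CPM with ethanol and 21.8 and 18.9 CPM in untreated cells, with no overlap between groups, a rise of 1.91 (SE 0.22, adjusted p = 0.000291). PNC1, the nicotinamidase gene, had 283 and 397 CPM with estradiol, 219 and 298 CPM with ethanol and 80.2 and 66.5 CPM in untreated cells, with estradiol and ethanol overlapping, a rise of 2.21 (SE 0.30, adjusted p = 0.000882) that was 1.82 with ethanol. The others called were DDR48 (1.91), OM45 (1.53), the chaperone genes HSP78 (1.33) and HSP104 (0.82), the catalase gene CTT1 (1.42), TFS1 (2.204), RTN2 (1.08), the peroxidase gene GPX1 (0.86) and the aldehyde dehydrogenase gene ALD3 (0.85). The count was 5 to 11 when 1 of the 4 libraries was left out. Of 17 chaperone genes of the heat shock factor Hsf1, only BTN2 passed, with 18.5 and 24.8 CPM with estradiol, 26.8 and 39.4 CPM with ethanol and 56.7 and 65.7 CPM in untreated cells, with no overlap between groups, and fell by 1.50 (SE 0.41, adjusted p = 0.0394; 0.134 to 0.196 without 1 library). That 1 lower call among the 17 Hsf1 genes lies near the 3.8% of all genes called lower. The median of the Hsf1 list was 0.43, and 12 of its 17 fold changes were positive. DESeq2 called 2 of the Hsf1 genes higher and 2 lower. RTC3 and TMA10 were named for their size of change alone. RTC3 had 68.8 and 126 CPM with estradiol, 11.8 and 18.7 CPM with ethanol and 3.64 and 4.15 CPM in untreated cells, with no overlap between groups, and rose by 4.63 (SE 0.36, adjusted p = 3.09e-05). TMA10 had 22.8 and 48.1 CPM with estradiol, 7.99 and 23.3 CPM with ethanol and 2.75 and 2.05 CPM in untreated cells, with estradiol and ethanol overlapping. It rose by 3.90 (SE 0.49, adjusted p = 0.000509), or by 3.26 without estradiol replicate 2.

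Respiratory genes had many small positive fold changes. Of 35 respiratory chain and ATP synthase genes 34 had a positive fold change, 14 rose (median 0.75), and the median with ethanol was 0.66. CYC1, of cytochrome c, had 449 and 597 CPM with estradiol, 267 and 381 CPM with ethanol and 135 and 143 CPM in untreated cells. Its 3 groups did not overlap, and it rose by 1.91 (SE 0.32, adjusted p = 0.00301). QCR10, of complex III, had 20.7 and 25.9 CPM with estradiol, 21.0 and 27.9 CPM with ethanol and 11.0 and 9.14 CPM in untreated cells. The estradiol and ethanol libraries overlapped, and it rose by 1.21 (SE 0.22, adjusted p = 0.00431) and, with ethanol, by 1.28 (adjusted p = 0.0103). ATP20, of ATP synthase, had 74.3 and 79.3 CPM with estradiol, 42.6 and 41.0 CPM with ethanol and 31.1 and 35.2 CPM in untreated cells, with no overlap between groups, a rise of 1.21 (SE 0.20, adjusted p = 0.00263) that was larger than that with ethanol (difference 0.88, adjusted p = 0.0455); with library totals alone its adjusted p was 0.107. The NADH dehydrogenase gene NDI1 rose by 1.34 and the succinate dehydrogenase genes SDH1 and SDH2 by 2.01 and 1.22. HAP4, the limiting subunit of the activator of these genes, had 152 and 115 CPM with estradiol, 146 and 124 CPM with ethanol and 51.2 and 70.1 CPM in untreated cells, with estradiol and ethanol overlapping, a rise of 1.14 that was lost without any 1 of the 4 libraries (adjusted p = 0.0944 to 0.236). The 14 calls became 9 without estradiol replicate 1, 2 without estradiol replicate 2 and 3 without either untreated replicate. Of 11 TCA cycle genes 5 rose: the citrate synthase gene CIT1 (1.09), LSC2 (1.04), the isocitrate dehydrogenase genes IDH1 (1.42) and IDH2 (0.96), and MDH1 (1.00). CIT1 had 184 and 226 CPM with estradiol, 252 and 284 CPM with ethanol and 96.9 and 95.3 CPM in untreated cells; the ethanol libraries were the highest, and ethanol over untreated gave 1.48 (adjusted p = 0.00211). The TCA list had 0 to 4 calls without 1 of the 4 libraries.

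Genes of ribosome synthesis had lower levels, and again the ethanol values were close to the estradiol ones. All 54 ribosome biogenesis genes had negative fold changes, with a median of -0.74 against -0.02 over all genes, and the median with ethanol was -0.71. Of the 54, 12 (against 3.8% of all genes) passed in edgeR and 33 in DESeq2. NOP56, of a core protein of the small nucleolar particles that modify ribosomal RNA, had 475 and 368 CPM with estradiol, 489 and 416 CPM with ethanol and 810.1 and 887 CPM in untreated cells. The estradiol and ethanol libraries overlapped below the untreated pair, and NOP56 fell by 1.01 (SE 0.24, adjusted p = 0.022). CBF5, the pseudouridine synthase gene, had 522 and 419.7 CPM with estradiol, 560.5 and 480.4 CPM with ethanol and 891 and 937 CPM in untreated cells, with estradiol and ethanol overlapping, and fell by 0.96 (SE 0.24, adjusted p = 0.0258). UTP8 (-0.99), RRP5 (-1.10) and SDA1 (-1.01) fell too, as did EFG1 (-1.06), of rRNA processing but outside the list. Each of these calls is close to the threshold. Without 1 of the 4 libraries 0 or 1 of the list passed, although the median stayed between -0.84 and -0.63, and with library totals alone 0 passed. Of 7 RNA polymerase I genes, RPA34 (-1.05), RPA43 (-0.75) and RPA49 (-0.73) fell, and 0 or 1 of the list passed without 1 library. The 138 cytosolic ribosomal protein genes had smaller fold changes, with a median of -0.25. They held 17.8% and 17.2% of the estradiol counts, 19.5% and 18.9% of the ethanol counts and 22.1% and 21.8% of the untreated counts. Only RPS28B passed, with 64.1 and 52.1 CPM with estradiol, 104 and 67.9 CPM with ethanol and 196 and 186 CPM in untreated cells, with no overlap between groups, and fell by 1.71 (SE 0.25, adjusted p = 0.0013).

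Several phosphate genes fell. Pho4 turns on the PHO genes when phosphate is short, and 8 of 15 fell (median -0.92). PHO89, a sodium-phosphate cotransporter gene, had 1.92 and 2.05 CPM with estradiol, 5.06 and 7.27 CPM with ethanol and 29.9 and 35.0 CPM in untreated cells. The 3 groups did not overlap, and PHO89 fell by 4.02 (SE 0.29, adjusted p = 1.68e-05), the lowest fold change among the genes named; the estradiol-over-ethanol difference was -1.63 (adjusted p = 0.0136). SPL2, of a regulator of phosphate uptake, had 7.97 and 10.1 CPM with estradiol, 53.6 and 67.0 CPM with ethanol and 72.5 and 64.8 CPM in untreated cells. Here the ethanol and untreated libraries overlapped, and SPL2 fell by 2.93 (SE 0.35, adjusted p = 0.00032). VTC3, of the polyphosphate polymerase complex, had 334 and 269.8 CPM with estradiol, 609 and 530.0 CPM with ethanol and 1100.4 and 988 CPM in untreated cells, in 3 separate steps, and fell by 1.79 (SE 0.23, adjusted p = 0.000527). The acid phosphatase genes PHO11 and PHO12 are near-identical copies between which reads may be split. PHO11 had 88.8 and 107 CPM with estradiol, 269 and 392 CPM with ethanol and 722 and 654 CPM in untreated cells, with no overlap between groups, and fell by 2.82 (SE 0.44, adjusted p = 0.00214). PHO12 fell alike, with a fold change of -2.82. PHO5 (-2.49), PHM6 (-0.99) and VTC2 (-0.88) fell as well. PHO84, the high-affinity transporter gene, stood at -0.36 (-1.16 to 0.44, adjusted p = 0.56). In each of the 4 fits that left out a library 6 of the list were called lower.

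Metal uptake genes had calls in both directions, more of them lower. Over all genes tested, 3.8% were called lower and 6.85% higher. Of 19 iron regulon genes 5 fell and 2 rose (median -0.43), and the 2 higher calls lie close to the share of all genes. SIT1, a siderophore transporter gene, had 19.1 and 14.7 CPM with estradiol, 85.0 and 84.4 CPM with ethanol and 151 and 137 CPM in untreated cells. The 3 groups stood in order without overlap, and SIT1 fell by 3.09 (SE 0.28, adjusted p = 5.86e-05). FRE4, a ferric reductase gene, had 16.1 and 18.3 CPM with estradiol, 27.4 and 36.9 CPM with ethanol and 90.3 and 83.0 CPM in untreated cells, with no overlap between groups, and fell by 2.33 (SE 0.26, adjusted p = 0.000244). The siderophore transporter genes ARN1 (-1.01), ARN2 (-0.91) and ENB1 (-1.08) fell as well. FIT1, of a wall mannoprotein that holds siderophore iron, had 9.54 and 10.3 CPM with estradiol, 2.21 and 1.99 CPM with ethanol and 1.21 and 0.788 CPM in untreated cells, with no overlap between groups, and rose by 3.34 (SE 0.48, adjusted p = 0.00137). ISU1, the scaffold for iron-sulfur clusters, rose by 1.05. Without 1 of the 4 libraries 2 or 3 members were called lower and 1 or 2 higher. Of 6 zinc genes, the zinc transporter gene ZRT1 had 24.7 and 22.5 CPM with estradiol, 37.3 and 39.8 CPM with ethanol and 91.8 and 82.7 CPM in untreated cells, with no overlap between groups, and fell by 1.89 (SE 0.36, adjusted p = 0.00729); its adjusted p was 0.0919 without estradiol replicate 2 and 0.0534 without untreated replicate 1.

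Among nitrogen-regulated genes 4 of 22 rose (median 0.54). Over all genes tested, 6.85% were called higher and 3.8% lower. The Gcn4, purine, thiamine and meiosis lists below each gave 1 call in a direction, which lies near those shares. PUT4, the proline permease gene, had 50.6 and 60.8 CPM with estradiol, 4.92 and 4.05 CPM with ethanol and 1.38 and 1.21 CPM in untreated cells. The estradiol libraries stood far above the other 4, with a rise of 5.43 (SE 0.61, adjusted p = 0.000244) and a difference from ethanol of 3.63 (adjusted p = 0.00356). GAT2, of a GATA-type factor, had 53.9 and 54.8 CPM with estradiol, 15.3 and 19.8 CPM with ethanol and 6.15 and 8.03 CPM in untreated cells, in 3 separate steps, and rose by 2.93 (SE 0.29, adjusted p = 0.000123). UGA1, of GABA use, rose by 1.17 and PUT2, of proline use, by 0.87. Of the list, 2 to 4 were called without 1 of the 4 libraries. Amino acid synthesis gave 1 call: of 38 Gcn4 targets only the lysine gene LYS9 passed, with 804 and 861 CPM with estradiol, 1436 and 1635 CPM with ethanol and 2206 and 1769.6 CPM in untreated cells, with no overlap between groups, and fell by 1.26 (SE 0.35, adjusted p = 0.0411; 0.121 to 0.233 without 1 library). Of 20 sulfur and methionine genes MET28 (1.60), the ATP sulfurylase gene MET3 (0.81) and the permease gene MUP3 (1.64) rose, and 0 to 2 of the list without 1 library. Of 14 purine genes ADE2 rose by 0.64 (SE 0.17, adjusted p = 0.0382; 0.0479 to 0.349 without 1 library). Of 17 thiamine genes the transporter gene THI7 rose, with 82.1 and 105 CPM with estradiol, 39.4 and 47.0 CPM with ethanol and 31.8 and 27.5 CPM in untreated cells, with no overlap between groups, by 1.65 (SE 0.28, adjusted p = 0.00317), while PHO3, the acid phosphatase that thiamine represses, had 53.6 and 74.3 CPM with estradiol, 361 and 576 CPM with ethanol and 412 and 330.3 CPM in untreated cells and fell by 2.54 (SE 0.44, adjusted p = 0.00378). The ethanol and untreated libraries of PHO3 overlapped far above the estradiol ones. THI7 had an adjusted p of 0.0566 without untreated replicate 2. Of 19 tested meiosis and sporulation genes SPS4 passed, with 22.8 and 19.5 CPM with estradiol, 8.85 and 4.60 CPM with ethanol and 4.05 and 5.46 CPM in untreated cells, with ethanol and untreated overlapping, and a rise of 2.14 (SE 0.37, adjusted p = 0.00359) that did not pass without untreated replicate 1 (adjusted p = 0.0589) or with library totals alone (0.0959).

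Of 8 tested TIR, DAN and CWP wall mannoprotein genes outside the SBF list, 3 rose, 1 fell and 4 were not called (median 0.53). Over all genes tested, 6.85% were called higher and 3.8% lower. CWP1, a major mannoprotein gene, had 338 and 559 CPM with estradiol, 53.6 and 104 CPM with ethanol and 14.8 and 14.8 CPM in untreated cells. The 3 groups did not overlap, and CWP1 rose by 4.92 (SE 0.64, adjusted p = 0.000615). CWP2, its neighbour, had 1441 and 2132 CPM with estradiol, 453 and 773 CPM with ethanol and 185 and 168 CPM in untreated cells, with no overlap between groups, and rose by 3.34 (SE 0.56, adjusted p = 0.00317; 0.0559 without untreated replicate 2). TIR1, of a cold-shock mannoprotein, had 18.9 and 25.1 CPM with estradiol, 2.07 and 3.09 CPM with ethanol and 4.05 and 3.10 CPM in untreated cells, with no overlap between groups, a rise of 2.63 (SE 0.54, adjusted p = 0.00982; 0.0238 to 0.12 without 1 library). In TIR1 the higher ethanol library (3.09 CPM) all but met the lower untreated one (3.10 CPM), and only the estradiol pair stood well apart. TIP1, of the same family, had 17.2 and 29.4 CPM with estradiol. It had 161 and 275 CPM with ethanol and 147 and 118 CPM in untreated cells. Its estradiol libraries were the lowest by a wide margin, and TIP1 fell by 2.50 (SE 0.51, adjusted p = 0.00996), a call that held in 1 of the 4 fits without a library (adjusted p = 0.0408 to 0.0791). Of 16 cell wall integrity genes 3 rose (median 0.65). GSC2, a glucan synthase gene, had 214 and 257 CPM with estradiol, 77.8 and 105 CPM with ethanol and 49.8 and 37.5 CPM in untreated cells, with no overlap between groups, and rose by 2.43 (SE 0.34, adjusted p = 0.00111). CIS3, a wall protein gene of the PIR family, rose by 2.63 and the transglycosylase gene CRH1 by 1.87. Without 1 of the 4 libraries 1 to 3 of the list were called.

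The remaining lists gave no call in edgeR. Of 25 ergosterol genes 3 were lower at an unadjusted p under 0.05 and 2 in DESeq2 (median -0.19). Of 8 drug efflux genes 1 was higher and 2 lower at an unadjusted p under 0.05, with 0 in DESeq2 (median 0.24). Of 8 amino acid permease genes 1 was higher and 1 lower at an unadjusted p under 0.05, with 0 in DESeq2 (median 0.15).

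A few further genes were named by the size of their fall. BSC1 and PRM7 are neighbouring frames whose reads may be shared. BSC1 had 9.11 and 6.94 CPM with estradiol, 32.2 and 32.7 CPM with ethanol and 62.7 and 62.2 CPM in untreated cells, with no overlap between groups, and fell by 2.96 (SE 0.36, adjusted p = 0.000391). PRM7 had 21.0 and 21.2 CPM with estradiol, 73.5 and 79.9 CPM with ethanol and 148 and 146 CPM in untreated cells, the ethanol libraries again lying between the other groups, and fell by 2.80 (SE 0.34, adjusted p = 0.00042). AQY2, an aquaporin gene, had 1.78 and 2.90 CPM with estradiol, 9.27 and 19.4 CPM with ethanol and 18.9 and 12.5 CPM in untreated cells, with ethanol and untreated overlapping, and fell by 2.73 (SE 0.51, adjusted p = 0.00635), with an adjusted p of 0.0599 without estradiol replicate 1 and 0.0549 without untreated replicate 1. YDL241W had 2.99 and 3.68 CPM with estradiol, 8.85 and 9.06 CPM with ethanol and 22.1 and 20.4 CPM in untreated cells, with no overlap between groups, and fell by 2.67 (SE 0.23, adjusted p = 5.33e-05). RFS1 and YNL174W were named because estradiol and ethanol differed least in them. RFS1 had 102 and 138 CPM with estradiol, 104 and 135 CPM with ethanol and 61.0 and 57.4 CPM in untreated cells, so the estradiol and ethanol libraries overlapped. It rose by 1.02 with estradiol (SE 0.23, adjusted p = 0.0162; 0.0195 to 0.185 without 1 library) and stood at 1.01 with ethanol. YNL174W had 54.9 and 44.8 CPM with estradiol, 53.4 and 52.5 CPM with ethanol and 99.3 and 101 CPM in untreated cells, with estradiol and ethanol overlapping, and fell by 1.01 (SE 0.16, adjusted p = 0.00253; 0.0529 at most without 1 library), against -0.92 with ethanol.

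The levels at the earlier times, which the comparison did not use, show 2 courses. SWI4 was at 19.3 ± 1.99 CPM (SD, n = 2) at 0 h and, with estradiol, at 1369 ± 511, 1156 ± 351 and 859 ± 269 CPM at 1, 2 and 4 h. HO was at 48.1 ± 2.04 CPM at 0 h and at 312 ± 21.7, 625 ± 45.9 and 581 ± 3.10 CPM with estradiol, so the 2 h and 4 h means lay close together. MFA1 averaged 63.2 CPM at 0 h and 2.70, 3.91 and 6.25 CPM with estradiol, lowest at the first time. In these 3 genes the largest step on a log scale came within the first hour. With ethanol SWI4 averaged 13.6, 15.6 and 17.5 CPM and MFA1 75.0, 65.0 and 74.5 CPM at 1, 2 and 4 h. HXK1 instead stood higher at each time, with means of 6.14 CPM at 0 h and 34.7, 96.4 and 341 CPM with estradiol, and 34.5, 59.4 and 220.1 CPM with ethanol. GSY2 followed the same order in both series. PHO89 was at 32.5 CPM at 0 h, 14.3, 4.04 and 1.99 CPM with estradiol and 79.5, 20.7 and 6.17 CPM with ethanol, first above and then below the 0 h level in ethanol. No test was made of these courses.

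**Figure D4:**
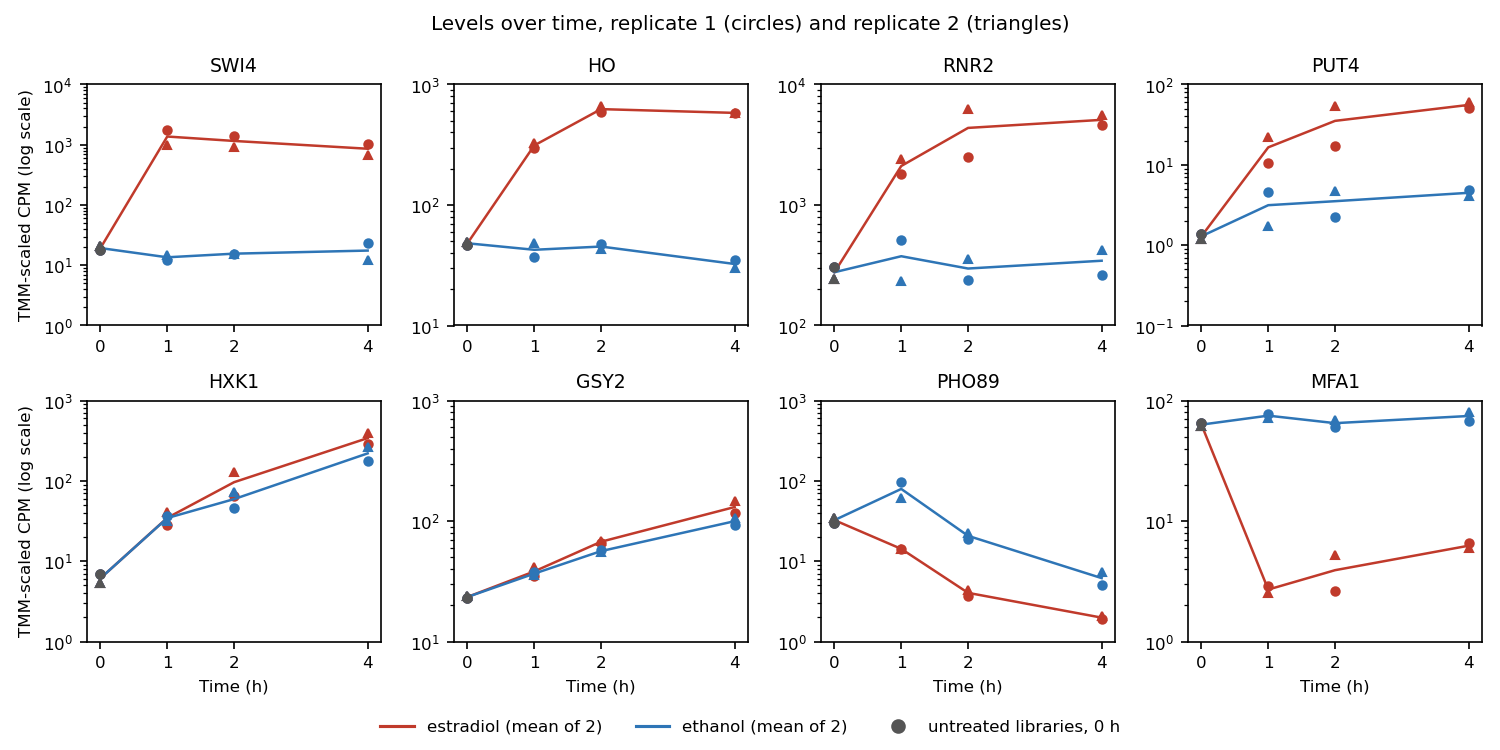
Levels of 8 genes in TMM-scaled CPM (log scale) against time in hours, estradiol in red and ethanol in blue, with the untreated libraries at 0 h in grey; circles and triangles are replicates 1 and 2 and lines join means of 2. SWI4, HO, RNR2, PUT4 and MFA1 part between estradiol and ethanol from 1 h on, while HXK1 and GSY2 stand higher at each time in both.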

How the data were processed

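Poly-A RNA was sequenced from 14 libraries, and 1 table of raw counts per gene was deposited by the authors for all of them. Reads were aligned with Bowtie2 2.2.5, per the submitters' processing notes; the counting tool, genome build, annotation and use of strand were not given in the sources used here. Of the 6670 identifiers, 5999 matched the RefSeq gene table of assembly R64 and took its symbols, while 671 did not match and kept their own, 542 of them among the genes tested.

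Genes passed edgeR's filterByExpr with a minimum count of 10. TMM factors, robust quasi-likelihood fits of 7 groups over all 14 libraries (edgeR 4.0.16, limma 3.58.1, R 4.3.3; 7 residual degrees of freedom) and contrasts gave log2 fold changes and two-sided p-values, adjusted by Benjamini-Hochberg over all 6337 genes; a call is an adjusted p under 0.05. Levels are TMM-scaled CPM. The SE is the log2 fold change divided by the root of F, and 95% intervals use each gene's total degrees of freedom. With 2 libraries a group no permutation test is informative, so only tests fitted across genes are given. The scripts were tested on simulated counts.

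Named genes are SWI4 and its partners, the 10 highest and 10 lowest called fold changes among genes of average log2 CPM of at least 3 with separated groups, up to 3 called members per list by p, and, among called genes past 1 on the log2 scale, the 4 in each direction whose estradiol and ethanol levels differ least and the 4 with the largest such difference; further members are named to complete a list's count. The members and lists were chosen with earlier results of these data known. The alternatives were other scalings, filters, samples in the fit, a replicate block, 1 surrogate variable (sva 3.50.0), DESeq2 1.42.0 and leaving out each library. A planned look at promoter motifs was not made, since no sequence of a build named for these files was used here. A gene of the DNA replication list and a whole gene list are not reported here.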

Additional observations from a re-analysis of the deposited data

Results flagged for a closer look

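In 55 of the genes named above the change against untreated cells differed between estradiol and ethanol at 4 h, by edgeR's quasi-likelihood test of estradiol over ethanol; the values here are those log2 differences with their adjusted p, 36 of them above ethanol and 19 below. PRM6 also differed (adjusted p = 0.00348), but with 3 reads over both estradiol libraries no fold is given. Both changes are measured against the same 2 untreated libraries, which drop out of the difference. Over all genes tested, 1.88% differed between estradiol and ethanol, 1.18% higher and 0.694% lower with estradiol. Some genes named above were chosen by the size of this difference and others by their change in the same estradiol libraries. The count of 55 is therefore no measure of how often genes differ.

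Above ethanol were SWI4 by 5.61 (5.52e-05), HO by 4.17 (2.17e-06), PCL1 by 3.06 (1.5e-05), CLN1 by 1.45 (0.00135) and PCL2 by 0.86 (0.0125), and the regulators YHP1 by 1.65 (0.000537), YOX1 by 1.31 (0.0198) and HCM1 by 1.03 (0.0145). The bud and wall genes CSI2, SVS1 and GIC2 stood 2.16 (6.72e-05), 2.64 (0.00155) and 0.83 (0.015) above ethanol. Further genes of that list above it were TOS6 by 2.75 (0.0024), SRL1 by 1.85 (0.0184), MNN1 by 1.61 (0.00168), MSB2 by 1.56 (0.0291), EXG1 by 1.51 (0.0237), AXL2 by 1.21 (0.0145) and GIC1 by 1.15 (0.0242). The same was seen in NRM1 by 1.95 (0.00135), CLB6 by 2.32 (0.00314), CLB5 by 1.34 (0.00417), RNR1 by 2.31 (0.00301), RNR2 by 3.88 (0.00243) and YJL026C-A by 3.90 (0.00154). Of genes outside the cell cycle, PUT4 was above ethanol by 3.63 (0.00356), GAT2 by 1.63 (0.00879), HSP12 by 2.95 (0.00043), RTC3 by 2.68 (0.00119), DDR48 by 1.29 (0.0359), FIT1 by 2.24 (0.0218), SPS4 by 1.66 (0.037), MET3 by 0.91 (0.0291) and ATP20 by 0.88 (0.0455). The wall genes CWP1, TIR1 and CRH1 stood 2.51 (0.0486), 3.08 (0.0144) and 1.68 (0.05) above ethanol, CWP1 and CRH1 close to the threshold.

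Below ethanol were MFA1 (-3.57, 2.01e-05) and MFA2 (-2.63, 0.000562), and the agglutinin gene AGA1 (-1.71, 0.0237). The phosphate genes SPL2 (-2.74, 0.00135), PHO5 (-2.13, 0.0158) and PHO89 (-1.63, 0.0136), the acid phosphatase gene PHO3 (-2.87, 0.00521) and the siderophore transporter genes SIT1 (-2.32, 0.000798) and ARN1 (-1.09, 0.0317) were below it too. So were the cell cycle genes MCM7 (-1.34, 0.00888), MCM5 (-0.94, 0.0317), CDC21 (-1.20, 0.0024), DSE2 (-1.09, 0.0237) and MSA1 (-1.17, 0.0172). The last were TIP1 (-3.23, 0.0078), AQY2 (-2.61, 0.0218), BSC1 (-2.01, 0.0124), PRM7 (-1.86, 0.0144) and YDL241W (-1.42, 0.0078). Of these 19, 12 had negative fold changes for ethanol over untreated cells, and 2 of them, PHO89 (-2.39, adjusted p = 0.00104) and YDL241W (-1.25, 0.0114), passed there too.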

How the results depend on the processing

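The 675 calls of estradiol 4 h against untreated cells became 377 with library totals alone, of which 268 were among the 675. The count was 1855 when only the 4 libraries compared were fitted and 1122 in DESeq2. With 1 surrogate variable it was 2381 (1205 higher and 1176 lower, against 434 and 241). Leaving out 1 library gave 183 to 568. The 119 calls of estradiol against ethanol became 655 with 1 surrogate variable, 206 in DESeq2 and 43 to 94 without 1 library, and the 110 of ethanol against untreated 853, 1266, 484 and 10 to 97 with only the groups compared, a surrogate variable, DESeq2 and 1 library left out. Scaling by size factors and both other filters on low counts stayed within 1.5 times of all 3 counts.

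Replicate numbers are shared between groups, but nothing in the labels says that they pair cultures. The deviations of same-numbered libraries correlated at -0.515 between estradiol 4 h and untreated and at -0.51 between ethanol 4 h and untreated. Between estradiol 4 h and ethanol 4 h they correlated at 0.741, and the main test of that difference did not use the replicate numbers. With the replicate number as a block the 675 calls became 816, the 119 became 127 and the 110 became 175. With the 2 untreated numbers crossed, an alternative chosen after seeing the data, the 675 became 1021.

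Among genes not called, the fold change of SWI6 was -0.026 with library totals and -0.26 to 0.32 without 1 library, below 0 without estradiol replicate 1 (-0.26) or untreated replicate 1 (-0.13). MBP1 stood at 0.30 with a surrogate variable and at -0.46 to 0.16 without 1 library, above 0 without untreated replicate 2. STB1 stood at -0.076 with library totals, -0.24 with a surrogate variable, -0.013 with the gene length trend removed and -0.27 to 0.37 without 1 library, below 0 without estradiol replicate 2 (-0.15) or untreated replicate 2 (-0.27). The cause of these changes was not tested. Removing that trend gave 736 calls, and keeping only matched identifiers 628, both also chosen after seeing the data. Of the 99 named calls 45 held under every setting. The medians of 5 lists, all within 0.17 of 0, changed sign under some setting.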

Other observations

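Further genes outside the lists were chosen after their values were seen. RGI1, a gene of energy metabolism under respiratory growth, had 28.8 and 55.4 CPM with estradiol, 32.7 and 49.5 CPM with ethanol and 3.72 and 3.57 CPM in untreated cells. The untreated pair stood apart, and RGI1 rose by 3.53 (SE 0.39, adjusted p = 0.000231) with estradiol, against 3.49 with ethanol. ALD4, the mitochondrial aldehyde dehydrogenase gene, rose by 2.91 (1.92 with ethanol), PYK2, the minor pyruvate kinase gene, by 2.37 (1.67), and STF2 by 2.48 (1.49). PRB1 and PBI2 encode a vacuolar protease and its inhibitor. PRB1 had 369 and 449 CPM with estradiol, 99.4 and 158 CPM with ethanol and 73.1 and 65.1 CPM in untreated cells, and rose by 2.57 (SE 0.33, adjusted p = 0.000615), against 0.90 with ethanol (adjusted p = 0.171). PBI2 rose by 2.90, against 1.17 with ethanol (0.0346). PYC1, a pyruvate carboxylase gene, rose by 2.72 and PRY2, of a secreted sterol-binding protein, by 2.84. The related subtelomeric frames YHR214W-A, YHR214W, YAR068W and YAR066W rose by 3.69, 3.52, 3.25 and 3.14; they are near-identical copies, so their reads may be shared.

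Other genes had lower levels with estradiol. KCC4, of a bud neck kinase, had 15.2 and 10.6 CPM with estradiol, 41.7 and 32.0 CPM with ethanol and 36.7 and 45.4 CPM in untreated cells, and fell by 1.67 (SE 0.30, adjusted p = 0.00431). YHB1, the flavohemoglobin gene, fell by 1.58 and FAA3, a fatty acyl-CoA synthetase gene, by 1.39. YRO2, a membrane protein gene, had 10.1 and 11.8 CPM with estradiol, 63.6 and 65.1 CPM with ethanol and 21.9 and 21.6 CPM in untreated cells. Its estradiol libraries were the lowest and its ethanol libraries the highest, with a fall of 0.99 (SE 0.22, adjusted p = 0.0136) against untreated cells, 1.56 for ethanol over untreated (adjusted p = 0.00324) and -2.55 for estradiol over ethanol (adjusted p = 8.19e-05). Its relative MRH1 stood at -1.205, against 0.72 with ethanol. YGP1, of a secreted glycoprotein, was uncalled against untreated cells (-0.39, adjusted p = 0.28), rose by 2.59 with ethanol (adjusted p = 0.000215) and gave -2.98 for estradiol over ethanol (adjusted p = 4.4e-05).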
